A study of Mus musculus with 27 samples.

Results

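The NADPH oxidases are enzymes that carry electrons from NADPH across a membrane and pass them to oxygen, and 7 of their subunits were followed here through the conversion of mouse fibroblasts into induced neurons. The members were the rows of the deposited table of 54532 genes whose symbol is Cybb, Nox4, Cyba, Ncf1, Ncf4, Rac1 or Rac2. All 7 were present, and all 7 passed the filter on low values that left 14932 genes for testing (0.5 FPKM or more on average across the libraries, FPKM being the number of sequenced fragments corrected for exon length and library size). Poly-A RNA was sequenced from mouse embryonic fibroblasts (MEFs) of wild-type (WT) mice and of mice labelled Per1-/- or Per2-/-, which lack a clock gene of the Period family. The knockout lines of the study were B6.129-Per1tm1Drw/J and B6.129-Per2tm1Drw/J. All 9 groups, the controls included, had received lentiviruses for the BAM genes, a set of transcription factors that turn fibroblasts into neurons. RNA was taken on day 0, before doxycycline switched the BAM genes on, and on days 2 and 4, with 3 biological replicates for each genotype and day. Doxycycline was added together with a change from medium with serum to serum-free N3 medium. The effects of the BAM genes and of the medium cannot be told apart in comparisons with day 0. Each dish pooled MEFs of several embryos of unknown sex with the head and heart removed, so a library is the average of a mixed primary culture.

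In phagocytes the oxidase is built around gp91phox, the catalytic subunit encoded by Cybb, which sits in the membrane together with p22phox, encoded by Cyba. On stimulation, cytosolic subunits, among them p47phox (Ncf1) and p40phox (Ncf4), move to the membrane with a Rac GTPase, and superoxide is released. Nox4 is the catalytic subunit best known in fibroblasts and other non-immune cells. It also needs p22phox, works without the cytosolic subunits and Rac, mainly releases hydrogen peroxide, and is regulated largely through its amount. Rac1 is made in nearly all cells and serves many processes besides the oxidase, while Rac2 is largely restricted to blood cells.

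The promoters of the membrane subunits are shown because the catalytic genes, Cybb and Nox4, differed most in their windows and took different courses. RefSeq windows of 300 bases, from 250 before to 50 after the annotated start (GRCm38.p6), were held for 4 of the 7 members: Cybb, Nox4, Cyba and Ncf1. The windows of Cybb (chrX:9469275-9469574, minus strand), Nox4 (chr7:87246399-87246698, plus strand) and Cyba (chr8:122432891-122433190, minus strand) read 5′ to 3′ as follows, with capitals at each GAGGAA (the core that the myeloid factor PU.1 prefers) and each GGGCGG (a GC box), searched on both strands.

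Cybb: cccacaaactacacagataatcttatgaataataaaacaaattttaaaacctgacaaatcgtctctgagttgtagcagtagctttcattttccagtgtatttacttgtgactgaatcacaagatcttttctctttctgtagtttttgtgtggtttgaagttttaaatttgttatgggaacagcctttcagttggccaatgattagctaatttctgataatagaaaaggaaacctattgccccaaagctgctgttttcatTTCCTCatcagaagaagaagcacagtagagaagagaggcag

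Nox4: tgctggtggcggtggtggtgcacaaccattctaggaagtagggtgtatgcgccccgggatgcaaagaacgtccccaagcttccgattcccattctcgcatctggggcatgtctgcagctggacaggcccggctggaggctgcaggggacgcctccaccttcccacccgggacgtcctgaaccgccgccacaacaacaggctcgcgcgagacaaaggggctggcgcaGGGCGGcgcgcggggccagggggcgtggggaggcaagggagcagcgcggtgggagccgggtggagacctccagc

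Cyba: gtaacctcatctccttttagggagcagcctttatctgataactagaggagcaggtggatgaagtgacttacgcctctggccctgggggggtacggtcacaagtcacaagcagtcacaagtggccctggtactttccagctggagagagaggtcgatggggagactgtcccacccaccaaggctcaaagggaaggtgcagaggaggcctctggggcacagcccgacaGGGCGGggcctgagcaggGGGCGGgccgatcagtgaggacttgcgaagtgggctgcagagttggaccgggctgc

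The Cybb window was the poorest in G and C, at 35.3% with 1 CpG, and held 1 GAGGAA, on the reverse strand and 10 bases into the transcript, and no GGGCGG. The Nox4 window was at 68.3% G and C with 24 CpG and held 1 GGGCGG and no GAGGAA. The Cyba window lay between them, at 60.7% with 9 CpG, and held 2 GGGCGG. The Ncf1 window (chr5:134229576-134229875, minus strand) was at 54.0% with 3 CpG and held 1 GGGCGG. Over all 32851 windows the medians were 52.7% and 7 CpG, 28.3% held a GAGGAA and 35.7% a GGGCGG, so that either match is common. The Cybb window also held 1 CCAAT, found in 37.4% of windows, and the windows of Cybb and Nox4 both lie inside the longer genes that the deposited table gives for them.

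In the table's coordinates (GRCm38, gene start to gene end), Cybb (ENSMUSG00000015340) lies at chrX:9435252-9487771, Nox4 (ENSMUSG00000030562) at chr7:87246096-87398710 and Cyba (ENSMUSG00000006519) at chr8:122424776-122432930. Ncf1 (ENSMUSG00000015950) lies at chr5:134220053-134229625 and Ncf4 (ENSMUSG00000071715) at chr15:78244801-78262580. Rac1 (ENSMUSG00000001847) lies at chr5:143503634-143528036 and Rac2 (ENSMUSG00000033220) at chr15:78559167-78572783. Values were counted over exons of the whole gene. Rac1 shared 2309 of its 4496 exon bases with Daglb on the other strand, and Ncf1 shared 408 of 3663 with Gtf2ird2, also on the other strand. The libraries were not directional, so reads in the shared bases cannot be told apart. Daglb was listed at 1.25 to 2.26 FPKM and Gtf2ird2 at 1.04 to 2.95 FPKM over the 27 libraries.

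The libraries held 15815013 to 24264097 fragments on genes, which gives 44 to 1679 fragments for Cybb in a library. Per1 transcript was at 3.23 to 4.96 FPKM in the 9 libraries labelled Per1-/- and 4.76 to 6.33 FPKM in WT, a difference that limma did not call on any day. Per2 transcript was higher in the libraries labelled Per2-/- (1.87 to 3.3 FPKM) than in WT (0.817 to 1.97 FPKM), and limma called it higher on days 0 and 2 (log2 difference 1.03 ± 0.127 SE, adjusted p = 0.00114, on day 0). These totals over all exons show no loss of Per2 transcript under the Per2-/- label, and say nothing of the protein. By western blot, the paper found PER1 protein lost in its Per1-/- MEFs and PER2 protein lost in its Per2-/- MEFs. The fibroblast markers were all 11 above the filter, with a summed level of 2480 to 6100 FPKM over all libraries. The summed neuron markers went from 47.2 to 106.0 FPKM on day 0 to 123.0 to 218.0 FPKM on day 4. Replicate 3 of Per1-/- on day 0 stood apart from the other 8 day 0 libraries in the phagocyte genes: Rac2 was 2.27 times, Ncf1 2.29 times, Cybb 1.74 times and Ncf4 1.64 times the highest of those 8 values.

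Per length, Rac1 and Cyba were the abundant members, with mean levels of 87.1 and 81.1 FPKM over the 27 libraries. The other members were lower, with mean levels of 7.71 FPKM for Rac2, 4.8 for Ncf1, 3.69 for Cybb, 2.38 for Ncf4 and 1.99 for Nox4. Over the days, and in the scaling as deposited, the members parted into those that rose from day 0 (Cybb, Ncf4 and Rac2 in all 3 genotypes, and Ncf1 in Per1-/-), those called lower on day 4 than on day 0 (Rac1, and Cyba in WT and the libraries labelled Per2-/-), and Nox4, which was lower on day 4 than on day 2.

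**Figure D1:**
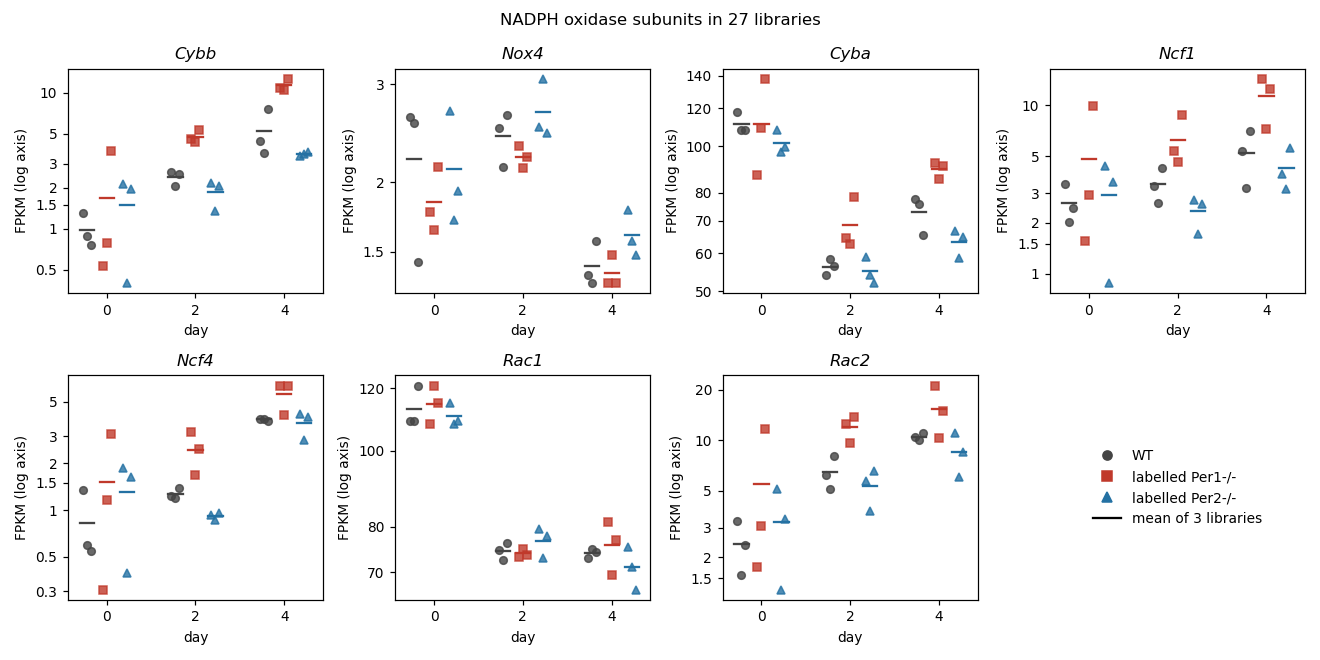
FPKM (log axes, own range in each panel) of the 7 members on days 0, 2 and 4, 1 point for each library and a line at the mean of the 3 libraries of a genotype. Cybb, Ncf1, Ncf4 and Rac2 spread widely on day 0 (Cybb from 0.402 to 3.72 FPKM), while Rac1 on days 2 and 4 (66.5 to 81.0 FPKM) stays under every day 0 value.

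Counted over genes, changes from day 0 were common, and the members' counts have to be read against that background. A gene counts as called where limma gave an adjusted p no higher than 0.05 together with a log2 change of 0.58 or more, up or down. In WT on day 2, 2 of the 7 members were called higher than on day 0, beside 20.8% of the genes tested, and 2 lower, beside 19.7%. On day 4 the WT counts were 3 higher, beside 22.9%, and 2 lower, beside 20.9%. In Per1-/- they were 2 higher (20.8% of genes) and 2 lower (18.8%) on day 2, and 4 higher (22.6%) and 1 lower (20.4%) on day 4. For the libraries labelled Per2-/- they were 0 higher (18.7%) and 1 lower (16.8%) on day 2, and 3 higher (21.6%) and 2 lower (18.8%) on day 4. From day 2 to day 4, Nox4 was called lower in each genotype, beside 1.59% of genes in WT, 1.06% in Per1-/- and 1.74% in the libraries labelled Per2-/-. The only member called higher between those days was Ncf4 in the libraries labelled Per2-/- (2.32% of genes), with 0 in WT (1.62%) and 0 in Per1-/- (1.38%). The comparisons with day 0 share the day 0 libraries and those within a genotype share their libraries with each other.

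The falls depend on how libraries are scaled. FPKM rescaled to a common sum per library moved the median log2 change of all tested genes from between -0.02 and 0.004 to between 0.246 and 0.409 in the 6 comparisons with day 0. With size factors computed again, Rac1 and Cyba were still called lower on day 4 in the libraries labelled Per2-/- but not in WT or Per1-/-. On the common-sum scale no member was called lower than on day 0: the split of higher against lower calls went from 2 and 2 to 3 and 0 in WT on day 2 and from 3 and 2 to 4 and 0 on day 4. It went from 2 and 2 to 4 and 0 and from 4 and 1 to 4 and 0 in Per1-/-, and from 0 and 1 to 1 and 0 and from 3 and 2 to 3 and 0 in the libraries labelled Per2-/-. Changes of Cyba, Rac1 and Nox4 are therefore also given against the median gene, where both scales give nearly the same value. Rescaling moves all genes of a library alike, so this sameness is built in and is no check of the falls.

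Cybb, the catalytic subunit of the phagocyte oxidase, had the largest log2 changes from day 0 among the members in each genotype on day 4 except the libraries labelled Per2-/-, where those of Ncf4 and Rac2 were larger. In WT it was at 1.31, 0.882 and 0.755 FPKM (day 0), 2.63, 2.05 and 2.51 (day 2) and 4.41, 3.61 and 7.6 (day 4). The 3 days did not overlap. In Per1-/- it was at 0.534, 0.782 and 3.72 FPKM (day 0), 4.56, 4.33 and 5.32 (day 2) and 10.8, 10.5 and 12.7 (day 4). The 3 days did not overlap there either, and the day 4 values were the highest of all 27 libraries. The libraries labelled Per2-/- held it at 2.14, 0.402 and 1.96 FPKM (day 0), 2.17, 1.35 and 2.05 (day 2) and 3.44, 3.54 and 3.68 (day 4), so that days 0 and 2 overlapped and day 4 stood above both. The log2 change from day 0 to day 4 was 2.25 ± 0.511 (SE) in WT (limma adjusted p = 0.000658), 3.14 ± 0.511 in Per1-/- (adjusted p = 1.98e-05) and 1.46 ± 0.511 in the libraries labelled Per2-/- (adjusted p = 0.0178). By day 2 it had risen by 1.23 ± 0.511 in WT (adjusted p = 0.0432) and 1.9 ± 0.511 in Per1-/- (adjusted p = 0.00313), and the change was 0.54 ± 0.511 in the libraries labelled Per2-/- (adjusted p = 0.389).

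Ordered by mean, the Cybb levels ran from Per1-/- day 4 (11.3 FPKM) through WT day 4 (5.21), Per1-/- day 2 (4.74), labelled Per2-/- day 4 (3.55), WT day 2 (2.4), labelled Per2-/- day 2 (1.86), Per1-/- day 0 (1.68) and labelled Per2-/- day 0 (1.5) to WT day 0 (0.982). Neighbours without overlap were Per1-/- day 4 and WT day 4, Per1-/- day 2 and labelled Per2-/- day 4, and labelled Per2-/- day 4 and WT day 2. The other neighbours overlapped. Single libraries carried part of this. The WT call on day 2 was lost when any of 5 of the 6 libraries was left out, namely replicate 2 or 3 of day 0 or any replicate of day 2 (log2 changes 1.08 to 1.33, adjusted p 0.0591 to 0.123). Without replicate 2 of the day 0 libraries labelled Per2-/-, the lowest of all 27 for Cybb, the day 4 change there was 0.77 (adjusted p = 0.17). Without the Per1-/- day 0 library that stood apart the Per1-/- changes were larger, at 2.69 on day 2 and 3.93 on day 4.

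Nox4, the oxidase of fibroblasts, was the other catalytic subunit measured above the filter. In WT it was at 2.62, 2.56 and 1.44 FPKM (day 0), 2.5, 2.13 and 2.64 (day 2) and 1.36, 1.32 and 1.57 (day 4). In Per1-/- it was at 1.77, 1.64 and 2.13 FPKM (day 0), 2.32, 2.12 and 2.22 (day 2) and 1.32, 1.48 and 1.32 (day 4). The libraries labelled Per2-/- held it at 2.69, 1.71 and 1.93 FPKM (day 0), 2.51, 3.07 and 2.45 (day 2) and 1.78, 1.57 and 1.48 (day 4). All 9 day 4 values (1.32 to 1.78 FPKM) lay under all 9 day 2 values (2.12 to 3.07 FPKM), and day 0 (1.44 to 2.69 FPKM) overlapped both. From day 2 to day 4 Nox4 fell by 0.73 ± 0.185 (log2, SE) in WT (limma adjusted p = 0.0277), by 0.66 ± 0.185 in Per1-/- (adjusted p = 0.0488) and by 0.69 ± 0.185 in the libraries labelled Per2-/- (adjusted p = 0.0285), or -0.72, -0.65 and -0.68 against the median gene.

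These Nox4 calls were close to the threshold. Same-numbered Per1-/- libraries of these days deviated together, and with the replicate number as a block the Per1-/- limma adjusted p was 0.0532. Leaving out any of the 6 libraries ended the call in Per1-/- (adjusted p 0.0851 to 0.134) and in the libraries labelled Per2-/- (0.0506 to 0.125), and in WT leaving out replicate 1 or 3 of day 2 or replicate 1 or 2 of day 4 did (0.0909 to 0.11). Against day 0, no Nox4 change was called. The day 4 log2 values were -0.56 in WT, -0.4 in Per1-/- and -0.35 in the libraries labelled Per2-/-, with SE 0.185 and limma adjusted p of 0.012, 0.0672 and 0.11. On the rescaled values Nox4 was called higher on day 2 than on day 0 in each genotype (log2 0.58 to 0.66), where the median gene was higher by 0.312 to 0.409.

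Cyba encodes p22phox, the membrane partner of both catalytic subunits. In WT it was at 118.0, 108.0 and 108.0 FPKM (day 0), 54.0, 58.3 and 56.4 (day 2) and 77.6, 76.0 and 65.4 (day 4). In Per1-/- it was at 87.1, 109.0 and 138.0 FPKM (day 0), 64.6, 62.7 and 78.3 (day 2) and 92.2, 85.5 and 91.1 (day 4). The libraries labelled Per2-/- held it at 108.0, 97.3 and 99.7 FPKM (day 0), 58.9, 54.0 and 52.1 (day 2) and 66.8, 58.5 and 64.8 (day 4). Every genotype was lowest on day 2, and in WT and Per1-/- every day 4 value lay above every day 2 value. By day 2 Cyba fell by 0.98 ± 0.117 (log2, SE) in WT (limma adjusted p = 4.17e-07), by 0.68 ± 0.117 in Per1-/- (4.51e-05) and by 0.88 ± 0.117 in the libraries labelled Per2-/- (2.11e-06). Against the median gene these were -0.97, -0.67 and -0.88.

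On day 4 Cyba was lower than on day 0 by a log2 change of -0.61 in WT and -0.68 in the libraries labelled Per2-/-, both called, and of -0.29 in Per1-/- (limma adjusted p = 0.0378), under the minimum fold change. From day 2 to day 4 the values were 0.37, 0.39 and 0.2, none of them called (adjusted p 0.0706, 0.0638 and 0.312). In the rescaled data the changes against the median gene were -0.96, -0.66 and -0.87 on day 2. The Per1-/- value on day 2 rested in part on the library that stood apart, and without it was -0.51 (adjusted p = 0.000345), short of the minimum fold change. The WT value on day 4 also fell short without replicate 1 of day 0 (-0.57) or replicate 3 of day 4 (-0.53).

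Ncf1 and Ncf4 encode cytosolic subunits, p47phox, the organizer, and p40phox. Ncf1 in WT was at 3.43, 2.03 and 2.44 FPKM (day 0), 3.32, 2.64 and 4.26 (day 2) and 5.39, 3.21 and 7.07 (day 4). In Per1-/- it was at 1.57, 2.94 and 9.98 FPKM (day 0), 5.33, 4.6 and 8.77 (day 2) and 14.4, 7.21 and 12.5 (day 4). The libraries labelled Per2-/- held it at 4.36, 0.883 and 3.52 FPKM (day 0), 2.72, 1.72 and 2.59 (day 2) and 3.91, 3.18 and 5.56 (day 4). Day 0 overlapped both later days in WT and Per1-/-, and in the libraries labelled Per2-/- day 4 stood above day 2 but overlapped day 0. Ncf1 was called only in Per1-/- on day 4, with a log2 change of 1.57 ± 0.54 (SE) from day 0 (limma adjusted p = 0.0154), and the values were 0.93 ± 0.54 in WT (0.14) and 0.74 ± 0.54 in the libraries labelled Per2-/- (0.242). The Per1-/- call was lost without replicate 1 of day 0 (0.99, adjusted p = 0.12), replicate 2 of day 0 (1.43, 0.0534) or replicate 1 of day 4 (1.37, 0.0609). It was 2.29 without the library that stood apart. Whether the Ncf1 changes differ between genotypes was tested with the changes of the other members, and none was called.

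Ncf4 was called higher than on day 0 in each genotype on day 4 and in no genotype on day 2. In WT it was at 1.35, 0.598 and 0.543 FPKM (day 0), 1.24, 1.2 and 1.38 (day 2) and 3.87, 3.89 and 3.77 (day 4). In Per1-/- it was at 0.307, 1.16 and 3.08 FPKM (day 0), 3.19, 1.68 and 2.46 (day 2) and 6.35, 4.12 and 6.3 (day 4). The libraries labelled Per2-/- held it at 1.88, 0.394 and 1.64 FPKM (day 0), 0.925, 0.863 and 0.96 (day 2) and 4.15, 2.83 and 3.98 (day 4). In every genotype all day 4 values lay above all day 2 and day 0 values, while days 0 and 2 overlapped. The log2 change from day 0 to day 4 was 2.19 ± 0.529 (SE) in WT (limma adjusted p = 0.00118), 2.25 ± 0.529 in Per1-/- (0.000932) and 1.63 ± 0.529 in the libraries labelled Per2-/- (0.0113). By day 2 the change was 0.66 in WT (limma adjusted p = 0.29) and 1.07 in Per1-/- (0.0874), each with SE 0.529. In the libraries labelled Per2-/- it was -0.23 (0.731). In Per1-/- the change by day 2 was close in size to the one that followed. From day 2 to day 4 the values were 1.52 in WT (0.101) and 1.18 in Per1-/- (0.214), neither called. In the libraries labelled Per2-/- Ncf4 was called higher over those days, by 1.87 ± 0.529 (adjusted p = 0.0381). That call was lost without any replicate of day 2 or without replicate 1 or 3 of day 4 (adjusted p 0.0872 to 0.133). The day 4 rise over day 0 there was 1.0 without replicate 2 of day 0 (adjusted p = 0.104).

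The Rac GTPases took opposite courses. Rac1 was at 108.0 to 121.0 FPKM in the 9 day 0 libraries, 72.6 to 79.4 on day 2 and 66.5 to 81.0 on day 4. The 18 later values all lay under the day 0 values, and days 2 and 4 overlapped. By day 4 Rac1 fell by 0.61 ± 0.064 (log2, SE) in WT (limma adjusted p = 6.69e-08), by 0.6 ± 0.064 in Per1-/- (9.35e-08) and by 0.64 ± 0.064 in the libraries labelled Per2-/- (3.9e-08), or -0.59, -0.6 and -0.65 against the median gene. Rescaling took these to -0.21, -0.33 and -0.39, where the median gene was higher by 0.366, 0.258 and 0.246, so that against the median gene they were -0.57, -0.59 and -0.64. By day 2 it fell by 0.6 in WT and 0.63 in Per1-/-, and the day 2 value of -0.53 in the libraries labelled Per2-/- (adjusted p = 6.45e-07) was short of the minimum fold change. Markers of contractile fibroblasts fell over the same days, 5 of 5 in every comparison with day 0, with a summed level of 2950.0 to 4650.0 FPKM on day 0 and 291.0 to 579.0 FPKM on day 4, and their part in the falls of Rac1 and Cyba was not tested. The called Rac1 values lay close to the minimum fold change: in WT they were -0.55 and -0.56 on days 2 and 4 without replicate 3 of day 0, and in Per1-/- on day 4 -0.56 without replicate 2 of day 0 and -0.54 without replicate 2 of day 4.

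Rac2, the Rac of blood cells, was at 3.3, 1.56 and 2.36 FPKM in WT (day 0), then at 6.16, 5.09 and 8.04 (day 2) and at 10.4, 9.98 and 11 (day 4), with no overlap between days. In Per1-/- it was at 1.75, 3.09 and 11.6 FPKM (day 0), 12.5, 9.64 and 13.8 (day 2) and 21.2, 10.3 and 14.9 (day 4). The libraries labelled Per2-/- held it at 5.12, 1.28 and 3.37 FPKM (day 0), 5.7, 3.8 and 6.58 (day 2) and 11.1, 6.03 and 8.51 (day 4). In Per1-/- and in the libraries labelled Per2-/- each pair of neighbouring days overlapped, in Per1-/- on day 0 through the library that stood apart. The log2 change from day 0 to day 4 was 2.13 ± 0.503 (SE) in WT (limma adjusted p = 0.000928), 1.86 ± 0.503 in Per1-/- (0.00296) and 1.52 ± 0.503 in the libraries labelled Per2-/- (0.013).

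By day 2 Rac2 had risen by 1.42 ± 0.503 in WT (limma adjusted p = 0.0193) and 1.54 ± 0.503 in Per1-/- (0.0119), and the value was 0.86 ± 0.503 in the libraries labelled Per2-/- (0.151). The WT call was lost without replicate 2 of day 0 (1.15, adjusted p = 0.0863) or replicate 3 of day 2 (1.25, 0.071), and the Per1-/- call without replicate 1 of day 0 (0.97, 0.1) or replicate 2 of day 0 (1.36, with an adjusted p that rounds to 0.05). The day 4 call of the libraries labelled Per2-/- was lost without replicate 2 of day 0 (0.98, 0.107) or replicate 1 of day 4 (1.31, 0.055).

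**Figure D2:**
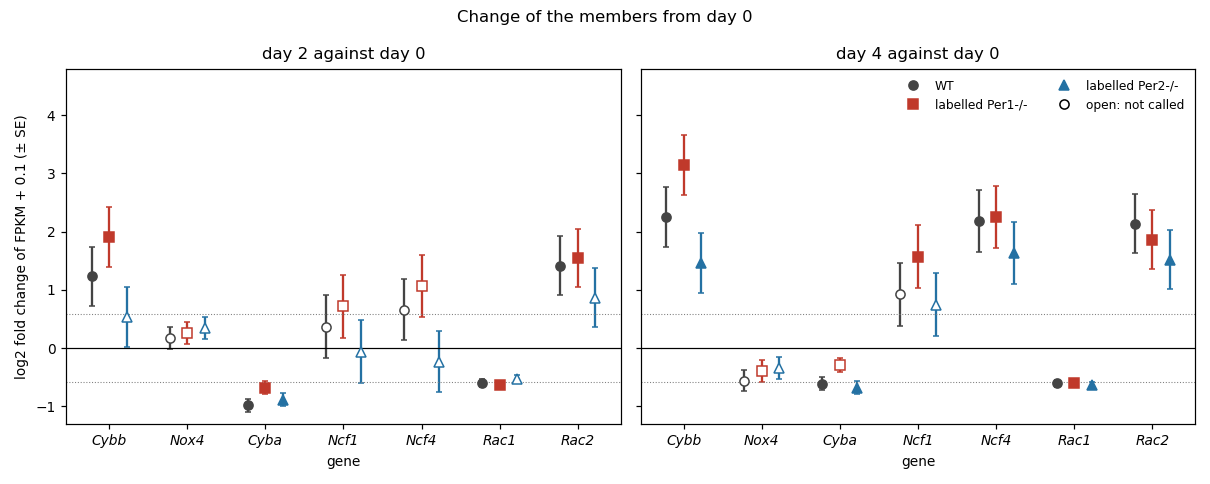
Log2 fold change from day 0 of FPKM + 0.1, with its SE, on day 2 (left) and day 4 (right) for each member and genotype, filled where called, with dotted lines at the minimum of 0.58 either way. On day 4 Cybb reaches 3.14 in Per1-/-, Cybb, Ncf4 and Rac2 are filled in all 3 genotypes, and Rac1 lies between -0.6 and -0.64.

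The balance between related subunits moved with these changes. Of the summed FPKM of the 2 catalytic genes, Cybb made up 25.7 to 34.4% in WT on day 0, then 48.7 to 51.2% by day 2 and 73.2 to 82.8% by day 4. In Per1-/- its share went from 23.2 to 63.5% over 66.3 to 70.5% to 87.6 to 90.6%, and in the libraries labelled Per2-/- from 19.0 to 50.4% over 30.6 to 46.3% to 65.8 to 71.3%. On day 4 the shares of the 3 genotypes did not overlap, a difference that was not tested. Of Rac1 and Rac2 together, Rac2 made up a median of 2.48% on day 0, 7.8% on day 2 and 12.8% on day 4 over all libraries, and at most 20.8% in any. Cyba exceeded Cybb by a median of 122.0 times on day 0 and 16.5 times on day 4, and by the least, 7.17 times, in a Per1-/- library of day 4. The ratio of Cybb to Ncf1 went from 0.266 to 0.557 on day 0 to 0.663 to 1.45 on day 4, without overlap. Shares and ratios are within a library and are not changed by its scaling. Each library is a mixed culture, so they do not show the balance within any 1 cell type. A change in the mix of cells and a change within cells cannot be told apart here.

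Markers of macrophages, which share the phagocyte oxidase, moved with the rising members. All 18 macrophage markers on the list passed the filter, and none of them is a member. Of these, 6 were called higher than on day 0 in WT on day 2 and 14 on day 4, 12 and 17 in Per1-/-, and 2 and 9 in the libraries labelled Per2-/-, beside 18.7 to 22.9% of all genes, with none lower. Their summed level was 235.0 to 520.0 FPKM in WT on day 0, then 340.0 to 561.0 by day 2 and 651.0 to 1160.0 by day 4. In Per1-/- the sums were 217.0 to 1200.0, 667.0 to 1380.0 and 1310.0 to 2330.0 FPKM, and in the libraries labelled Per2-/- 144.0 to 603.0, 194.0 to 409.0 and 499.0 to 852.0 FPKM. The library that stood apart on day 0 held the 1200.0, and the labelled Per2-/- library lowest for Cybb held the 144.0. In bulk RNA, more cells of a type and more RNA per cell cannot be told apart. None of 8 neutrophil, 6 lymphocyte or 4 mast cell markers passed the filter, with sums of at most 2.41, 0.693 and 0.443 FPKM in any library, and Tpsb2 of the mast cell list was at 0 in all 27.

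Taken against the mean log2 level of the macrophage markers, the 4 phagocyte members did not share a course. Over the 9 libraries of a day, Cybb went from -2.41 ± 0.214 (SD) on day 0 to -1.94 ± 0.268 on day 4, and Ncf1 from -1.14 ± 0.21 to -1.88 ± 0.217, each in the same direction in the means of all 3 genotypes. For Rac2 and Ncf4 the genotypes differed in direction. Rac2 went from -0.95 ± 0.126 to -1.41 ± 0.187 in Per1-/- (n = 3), from -1.13 ± 0.274 to -0.93 ± 0.206 in WT and from -1.14 ± 0.345 to -0.81 ± 0.394 in the libraries labelled Per2-/-. Ncf4 went from -2.75 ± 0.487 to -2.83 ± 0.126 in Per1-/-, from -2.6 ± 0.145 to -2.35 ± 0.294 in WT and from -2.43 ± 0.092 to -1.99 ± 0.207 in the libraries labelled Per2-/-. These differences between genotypes were not tested. With that mean as a covariate, the calls of Ncf4 and Rac2 on day 4 were lost in each genotype, and Cybb on day 4 was called only in Per1-/- (log2 change 0.88, limma adjusted p = 0.0058), with 0.37 in WT (0.175) and 0.31 in the libraries labelled Per2-/- (0.186). Ncf1 turned to -1.12 in WT (3.38e-05), -0.88 in Per1-/- (0.000965) and -0.51 in the libraries labelled Per2-/- (0.00839), of which the first 2 passed the minimum fold change. Rac1 and Cyba kept their calls from day 0. That mean itself rose from day 0 to day 4 in every genotype. It also includes Csf1r, Laptm5 and Ptprc, which are among the genes closest to Cybb or Rac2 over these libraries. Calls lost or turned under this covariate therefore do not measure what macrophages contribute. The part of macrophages in the day and genotype differences was not tested.

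**Figure D3:**
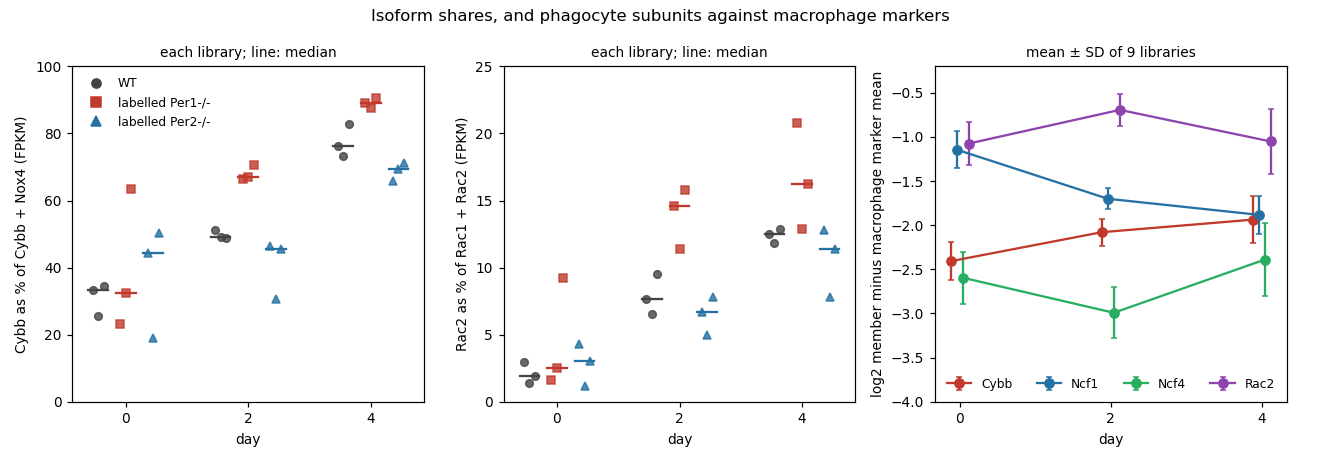
Left and middle, Cybb as a percentage of Cybb plus Nox4 and Rac2 as a percentage of Rac1 plus Rac2, by FPKM, 1 point for each library with a line at the median; right, log2 level of 4 members minus the mean log2 level of the 18 macrophage markers, mean ± SD of the 9 libraries of each day. Cybb makes up 65.8 to 90.6% on day 4, and against the macrophage markers Cybb rises to -1.94 while Ncf1 falls to -1.88.

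Between genotypes on the same day, the Per1-/- libraries held the highest levels of the phagocyte members on days 2 and 4. On day 2 all 3 Per1-/- libraries lay above the 6 others for Cybb, Cyba, Ncf1, Ncf4 and Rac2, 5 of 7 members beside 3.07% of the genes tested. On day 4 they did so for Cybb, Cyba and Ncf1, 3 of 7 beside 4.92%. On day 0 no member was so separated, beside 0.643% of genes. After rescaling, the members were 4 on day 2 and 1 on day 4, Cybb. The mean log2 level of the macrophage markers was also highest in Per1-/- on those days, at 4.41 ± 0.365 (SD) on day 2 and 5.31 ± 0.342 on day 4, against 3.43 ± 0.275 and 4.33 ± 0.273 in WT and 2.92 ± 0.36 and 3.88 ± 0.21 in the libraries labelled Per2-/-.

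No member was called by limma between genotypes on any day. On day 0 the background was 0.0134% of genes for Per1-/- against WT, 0.0201% for Per1-/- against the libraries labelled Per2-/- and 0.0067% for the latter against WT, and on day 2 it was 0.0067%, 0.0737% and 0.0268%. On day 4 it was 0.0268%, 0.556% and 0.0067%. The paper, with DESeq2 at the same thresholds, reported more genes than this fit in each Per1-/- comparison on every day. Few calls in this fit are therefore not evidence that the genotypes do not differ. At an unadjusted p under 0.05 there were 1 member for Per1-/- against WT on day 2 (2.75% of genes) and 2 on day 4 (6.19%), and 5 and 3 members for Per1-/- against the libraries labelled Per2-/- on those days (8.22% and 13.2%). In the 5 other comparisons there were 0, beside 4.82%, 5.97% and 3.94% of genes on day 0, in the order above, and 2.87% and 3.42% for the libraries labelled Per2-/- against WT on days 2 and 4. These comparisons share the Per1-/- libraries. Voom weights on the recovered fragments called 1 member, Cybb, for Per1-/- against the libraries labelled Per2-/- on day 4, and 0 elsewhere between genotypes.

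Cybb on day 4 was higher in Per1-/- than in the libraries labelled Per2-/- by 1.64 ± 0.511 (log2, SE, limma adjusted p = 0.148), a value called in a fit of only the 2 groups (adjusted p = 0.0114), with a pseudocount of 1 (0.0217) and with voom weights (0.00674). Against WT it was higher by 1.17 ± 0.511 (adjusted p = 0.745). Ncf1 on day 4 gave 1.39 ± 0.54 (adjusted p = 0.245) and 1.12 ± 0.54 (0.806) against the libraries labelled Per2-/- and WT. Rac2 gave 0.83 ± 0.503 (0.52) and 0.5 ± 0.503 (0.998), and Ncf4 0.59 ± 0.529 (0.704) and 0.5 ± 0.529 (0.998). The Cyba difference from the libraries labelled Per2-/- was 0.5 ± 0.117, with a limma adjusted p of 0.0473, close to the threshold of 0.05. It lay under the minimum fold change, and against WT the difference was 0.3 ± 0.117 (0.68). After rescaling, the Per1-/- libraries no longer all lay above the others for Cyba on day 4. Rac1 and Nox4 differed by at most 0.09 and 0.22 in size on that day, with SE 0.064 and 0.185. With SE of about 0.5 for the phagocyte members, a difference of 2-fold between groups of 3 lay within 2 SE. These SE come from 1 spread shared by all 9 groups, the widely spread day 0 libraries included. They need not match the spread of the day 4 libraries. On day 4 Cybb was at 10.5 to 12.7 FPKM in Per1-/- and 3.44 to 3.68 FPKM in the libraries labelled Per2-/-.

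**Figure D4:**
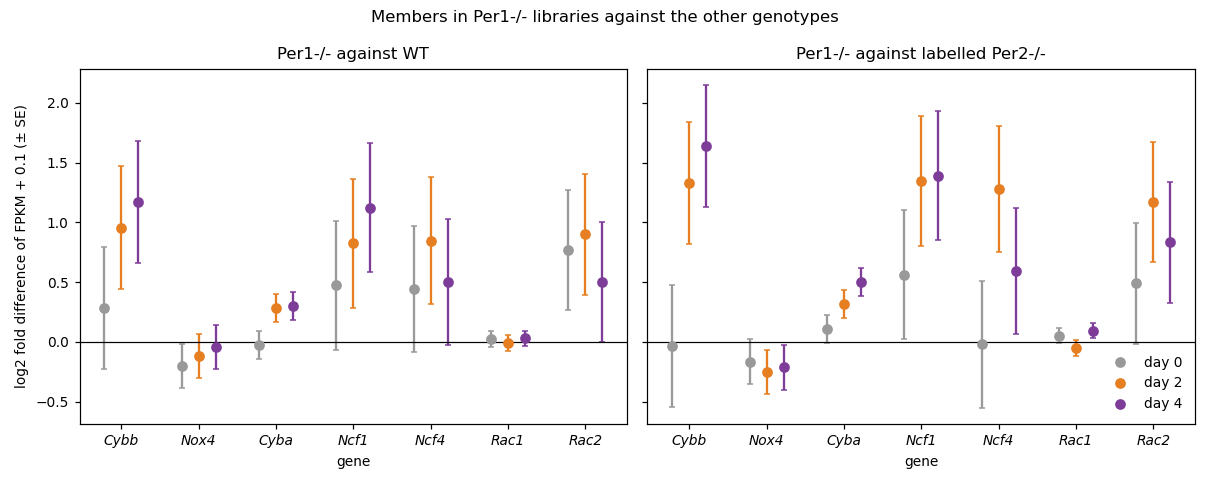
Log2 fold difference of FPKM + 0.1, with its SE, of Per1-/- against WT (left) and against the libraries labelled Per2-/- (right) for each member on days 0, 2 and 4. The values of Cybb climb from 0.28 to 1.17 against WT and from -0.04 to 1.64 against the libraries labelled Per2-/-, with SE 0.511, and none was called.

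Whether the change from day 0 differed between genotypes was tested directly. No member was called in any of these 6 comparisons, beside 0.0% of genes. At an unadjusted p under 0.05 there were 2 members, Cybb and Cyba, for the change to day 4 in Per1-/- against the libraries labelled Per2-/-, beside 5.99% of genes. In the other 5 there were 0, beside 3.35% and 2.61% of genes for the change to day 4 in Per1-/- and in the libraries labelled Per2-/- against WT, 2.05% and 2.91% for the same changes to day 2, and 4.49% for the change to day 2 in Per1-/- against the libraries labelled Per2-/-. No member was called with voom weights. Cybb rose more in Per1-/- by 1.68 ± 0.723 (log2, SE, limma adjusted p = 0.768) than in the libraries labelled Per2-/- and by 0.89 ± 0.723 (1) than in WT. A Cybb call on day 2 in WT and Per1-/- and not in the libraries labelled Per2-/- thus does not stand as a difference between them.

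Each member has genes that followed it most closely, taken as the smallest root-mean-square difference between mean-centred log2 levels over the 27 libraries. For Cybb, whose own spread was 1.2, they were Ms4a7 (0.194), Csf1r (0.214), which encodes the receptor for macrophage colony-stimulating factor, and Pik3cg (0.23). For Rac2, with a spread of 1.02, they were Laptm5 (0.223), Ptprc (0.249), the leukocyte antigen CD45, and Ikzf1 (0.254). Ncf1 was followed by C3ar1 (0.25), a receptor for the complement fragment C3a, Clec5a (0.257) and Rasal3 (0.262), and Ncf4 by Lcp1 (0.284), Vav1 (0.289) and Myo1f (0.293). Csf1r is not a member but is on the list of macrophage markers, as are Laptm5 and Ptprc. Rac1, with a spread of 0.291, had Ywhaz (0.067), Gorasp2 (0.068) and Cyfip1 (0.07), Cyba had M6pr (0.115), Klf13 (0.149) and Snx10 (0.15), and Nox4, with a spread of 0.353, had Ttc13 (0.199), Rcn2 (0.203) and Exoc2 (0.206). Among the members, the smallest differences were for Cyba and Rac1 (0.235), Nox4 and Rac1 (0.431) and Cybb and Rac2 (0.442). Cyba and its partner Cybb were far apart (1.34). The measure is also small for genes that change little. The Nox4 and Rac1 value lay above the own spread of either gene (0.353 and 0.291), so it does not show a shared course. That of Cybb and Rac2 lay well under their spreads (1.2 and 1.02). These are descriptions over libraries that share genotype, day and depth.

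Of 15 further genes of the oxidase family, 7 passed the filter and 8 did not, among them the catalytic genes Nox1, Nox3, Duox1 and Duox2 (Nox1 at most 0.115 FPKM). The 1 gene of these 7 called from day 0 to day 4 was Hvcn1, a voltage-gated proton channel that offsets the charge moved by the oxidase. It was called higher in each genotype, beside 21.6 to 22.9% of all genes, so the count is not above the background. Hvcn1 changed by 1.62 ± 0.252 (log2, SE) in WT (limma adjusted p = 1.16e-05), 1.13 ± 0.252 in Per1-/- (0.000577) and 0.88 ± 0.252 in the libraries labelled Per2-/- (0.00482). Cybc1, which encodes a chaperone that gp91phox needs, stayed between 8.62 and 11.1 FPKM over all libraries and was not called. Rac3, a Rac found mainly in neurons, was lower in Per1-/- than in the libraries labelled Per2-/- on day 4 by -0.67 ± 0.135 (adjusted p = 0.0214), the only called genotype difference in this group, beside 0.556% of all genes. That call was lost with the replicate block (0.0536), in a fit of only the 2 groups (0.121) and without replicate 1 or 3 of either group (0.0563 to 0.165). The median log2 changes of the 7 genes lay between -0.22 and 0.1 in the 9 comparisons over days, beside -0.02 to 0.004 for all genes.

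Genes that load Rac or set off the oxidase were called in both directions. Of 25 tested, 7 were called higher and 5 lower than on day 0 in WT on day 2, and 11 and 4 on day 4. The counts were 9 and 4, then 14 and 3 in Per1-/-, and 4 and 5, then 8 and 3 in the libraries labelled Per2-/-. Over all genes 18.7 to 22.9% were called higher and 16.8 to 20.9% lower in these comparisons, so that several of the counts, such as 5 lower of 25 in WT on day 2, are near the background. The exchange factors Prex1 and Vav3 and the kinase Prkcb, which phosphorylates p47phox, were called higher in all 6 of these comparisons. In WT on day 4 their log2 changes were 2.64 ± 0.282, 1.53 ± 0.183 and 2.5 ± 0.325 (SE). The GTPase dissociation inhibitors Arhgdia and Arhgdib and the exchange factor Dock5 were called lower in all 6, at -1.13 ± 0.0882, -2.72 ± 0.154 and -1.89 ± 0.165 in WT on day 4. These 6 genes kept their calls on the rescaled values. They were picked from the list after their values were seen. Between genotypes, Pik3cd and Syk were called higher in Per1-/- than in the libraries labelled Per2-/- on day 4, 2 of the 25, beside 0.556% of all genes called in either direction.

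Of 13 transcription factors and transforming growth factor beta genes known upstream of the subunits, all passed the filter. Spi1, which encodes PU.1, the factor that drives the phagocyte subunits in myeloid cells, rose from day 0 to day 4 by 2.71 ± 0.518 (log2, SE) in WT (limma adjusted p = 0.000118), 2.57 ± 0.518 in Per1-/- (0.000212) and 2.06 ± 0.518 in the libraries labelled Per2-/- (0.00176). Cebpa, another myeloid factor, rose by 2.01, 1.68 and 1.49, and Irf8 by 1.52 in WT and 1.86 in Per1-/-, with 0.6 ± 0.426 in the libraries labelled Per2-/- (adjusted p = 0.23). Cebpb and Runx1 fell in all 6 comparisons with day 0, by 1.34 and 1.38 in WT on day 4, and after rescaling Cebpb alone kept all 6 calls. Of the growth factor side, which induces Nox4 in fibroblasts, the receptor gene Tgfbr1 was called higher in all 6 (1.02 ± 0.0963 in WT on day 4) and Tgfb3 lower in all 6 (-1.44 ± 0.253), though not in all 6 after rescaling, while Smad3 was not called from day 0 to day 4. In all, 4, 5, 3, 5, 1 and 4 of the 13 were called higher and 4, 3, 3, 3, 4 and 3 lower, for days 2 and 4 in WT, Per1-/- and the libraries labelled Per2-/- in turn. Most of these counts are near the shares of all genes, 18.7 to 22.9% higher and 16.8 to 20.9% lower. Tgfb1 was the only one called between genotypes, higher in Per1-/- than in the libraries labelled Per2-/- on day 4 (0.74 ± 0.145, adjusted p = 0.0191), beside 0.556% of all genes.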

How the data were processed

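Poly-A RNA of 27 libraries was analysed from the table of FPKM per gene that the authors deposited. Per the methods and the submitters' processing notes, reads were aligned to GRCm38 with HISAT2 2.0.5 and counted per gene over exons with featureCounts 1.5.0-p3, without strand, before the authors scaled them to FPKM. FPKM times exon length gave whole fragments for 100.0% of values (tolerance 0.01), 15815013 to 24264097 per library, and the authors' scale was 0.865 to 1.099 times these totals, so libraries do not share 1 FPKM sum.

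Genes averaging 0.5 FPKM or more (14932) were tested on log2(FPKM + 0.1), a scale that understates changes of low genes, with limma 3.58.1 (R 4.3.3; 9 groups in 1 fit, trend in the prior variance) and Benjamini-Hochberg adjustment over all tested genes. Replicates were those the titles name as biological. Since embryos were pooled, p-values measure the spread between dishes. The same fit was checked on simulated data with 1 spread per gene in all groups and independent libraries. That check does not cover unequal spreads between days or paired libraries. Groups came from the sample labels, and the alternatives tried are given with their effect at the end. The members and the gene lists were chosen with earlier results of these data known. Named genes are the members, their 3 most similar genes, and genes of the oxidase, Rac, upstream and peroxide removal lists. Correlations of same-numbered libraries' deviations from their group means ran from -0.0172 to 0.294 over days and from -0.256 to 0.192 between genotypes, and passed 0.1 in every pair only for WT days 2 and 4 and for Per1-/- days 0 and 2 and days 2 and 4. Tables of the authors' own comparisons were not used here, and DESeq2 was not run. Some related genes are not reported here.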

Additional observations from a re-analysis of the deposited data

How the results depend on the processing

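Of the 67 member and relative values compared, most kept their direction and their side of the threshold: 65 with the replicate block, 65 with a pseudocount of 0.01, 62 with a pseudocount of 1, 63 with no filter on low values, 62 with size factors computed again, 59 in a fit of only the groups compared, 53 after rescaling FPKM to a common sum and 35 with the macrophage marker mean as a covariate. The number of members called moved by over 1.5 times as follows. With size factors computed again it was 3 for WT day 4 against day 0 (5 in the deposited scaling) and 0 for Per1-/- day 4 against day 2 (1). A fit of only the groups compared gave 2 for WT and 2 for Per1-/- on day 4 against day 2, 3 for Per1-/- day 4 against day 0, and 1 each for the libraries labelled Per2-/- on day 4 against day 2 and for Per1-/- against them on day 4. With no filter the counts of day 4 against day 2 were 0 in WT, 0 in Per1-/- and 1 in the libraries labelled Per2-/-. Voom weights on fragments gave 2 for WT and 2 for Per1-/- there and 1 for Per1-/- against the libraries labelled Per2-/- on day 4. A minimum mean of 1 FPKM, a pseudocount of 0.01 and the replicate block each gave 0 for Per1-/- day 4 against day 2, and beside that call (Nox4) the replicate block, which pairs these libraries, ended only the Rac3 call. A pseudocount of 1 gave 1 for the libraries labelled Per2-/- on day 4 against day 2 and 1 for Per1-/- against them on day 4. With no minimum fold change the counts were 2 for the libraries labelled Per2-/- on day 2 against day 0 and 1, Cyba, for Per1-/- against them on day 4. Rescaling gave 3 for the libraries labelled Per2-/- on day 4 against day 0, and 1 member with every Per1-/- library highest on day 4 (3), the latter chosen after seeing the data. The covariate gave 2 for each of the libraries labelled Per2-/- on days 2 and 4 against day 0. It turned the day 4 change from day 0 to -1.12 in WT, -0.88 in Per1-/- and -0.51 in the libraries labelled Per2-/- for Ncf1, and in Per1-/- to -0.34 for Rac2 and -0.00283 for Ncf4. Against WT on day 2 it turned Per1-/- to -0.20 for Ncf1, -0.097 for Ncf4 and -0.0257 for Rac2, and on day 4 to -0.45 for Ncf4 and -0.43 for Rac2. Against the libraries labelled Per2-/- it turned Per1-/- on day 2 to -0.12 for Cybb, -0.23 for Ncf1, -0.16 for Ncf4 and -0.24 for Rac2, and on day 4 to -0.13 for Ncf1, -0.80 for Ncf4 and -0.53 for Rac2. The cause was not tested. Leaving out 1 library at a time, the members called on day 2 against day 0 ranged from 2 to 4 in WT, 3 to 5 in Per1-/- and 1 to 1 in the libraries labelled Per2-/-, on day 4 against day 0 from 4 to 5, 3 to 5 and 2 to 5, and on day 4 against day 2 from 0 to 1, 0 to 0 and 0 to 1, with 0 in each genotype and change comparison. Without replicate 3 of WT on day 0 the Nox4 change to day 2 turned from 0.17 to -0.10, and over the other 5 libraries left out it was at most 0.313. Depth was low for some members, with 12 fragments for Ncf4 in its lowest library and 44 for Cybb.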

Other observations

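On a list of genes for the removal of superoxide and peroxide, the products of these oxidases, several were lower after day 0. Of 16 tested, 8 were called lower than on day 0 in all 6 comparisons of days 2 and 4. They were the glutathione peroxidases Gpx1 and Gpx4, the peroxiredoxins Prdx1, Prdx5 and Prdx6, thioredoxin (Txn1), its reductase (Txnrd1) and Hmox1. The last encodes a heme oxygenase, which is on the list though it acts on heme and not on superoxide or peroxide. Over all genes 16.8 to 20.9% were called lower in a single one of these comparisons. The share of all genes called lower in all 6 was not counted and can be no higher than 16.8%. After rescaling FPKM to a common sum, 4 of these 8 genes were still called in all 6, namely Gpx4, Prdx6, Txn1 and Txnrd1. From day 0 to day 4, Prdx6 fell by 1.91 ± 0.161 (log2, SE) in WT, 1.88 ± 0.161 in Per1-/- and 1.88 ± 0.161 in the libraries labelled Per2-/-, and Txnrd1 by 1.49, 1.18 and 1.21 with SE 0.191. Cat, which encodes catalase, went the other way, at 0.54 ± 0.108 in WT, 0.65 ± 0.108 in Per1-/- and 0.41 ± 0.108 in the libraries labelled Per2-/-. It passed the minimum fold change only in Per1-/-, and after rescaling in all 6 comparisons. The median log2 change of the 16 genes from day 0 to day 4 was -0.78, -0.64 and -0.67, beside -0.02 to 0.004 for all genes. By limma, 0 of the 16 were called between genotypes on any day.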
